A study of Mus musculus with 10 samples.

Results

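Otx2, Fgf5, Pou3f1, Zic2 and Foxd3 are transcription factors and a growth factor known as markers of exit from the naive pluripotent state. Their nascent transcription was followed in mouse embryonic stem cells after loss of SOX2. The 5 genes were taken as a set, and a gene was kept when a transcribed unit (TU, a stretch of continuous nascent transcription on 1 strand) carried its symbol and held more than 10 fragments in at least 2 of the 10 libraries. By this rule 4 of the 5 genes were found, Otx2, Pou3f1, Zic2 and Foxd3, among 14997 tested TUs with a gene symbol. No TU of the table carried the symbol Fgf5, and the TU nearest to that gene lay 56.5 kb away with a mean of 2.8 fragments per library, so Fgf5 was not analysed here.

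Embryonic stem cells pass from a naive state, which resembles the epiblast before implantation, through a formative state to a primed state that resembles the epiblast after implantation. OTX2 is a homeodomain factor that works with OCT4 on enhancers activated during this transition. POU3F1 is a POU factor of the early post-implantation epiblast and of neural differentiation. ZIC2 is a zinc finger factor that binds enhancers in stem and epiblast cells. FOXD3 is a forkhead factor needed to maintain the epiblast and stem cells derived from it. FGF5 is a secreted growth factor widely used to mark the post-implantation epiblast. SOX2, the depleted protein, is an HMG-box factor that binds DNA together with OCT4 and keeps enhancers of pluripotent cells accessible.

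All cells were E14 embryonic stem cells with the genotype SOX2-FKBP, in which both Sox2 alleles carry a tag that directs the protein to degradation once dTAG-13 is added, and according to the methods the stem cells were E14Tg2A (129/Ola), the SOX2 line was made in IB10 cells and homozygous clones were used. All were grown with LIF, a MEK inhibitor and a GSK3-β inhibitor, a medium that holds cells in the naive state. Untreated cells (NT) received DMSO and the others 500 nM dTAG-13 for 0.5, 1, 2 or 6 h (hours post depletion, hpd), with 2 replicates in each of the 5 groups and 11131490 to 25854106 fragments per library. Every library came from cells given 2 mM of the uridine analog 4SU for 10 min, which marks the RNA made in that time so that it can be purified. Untagged cells given dTAG-13 were not analysed here. The labels do not say whether replicates came from separate cultures, so p-values measure the spread between these samples, which may be technical. By mean level per kb over all 10 libraries, the 10 embryonic stem cell markers checked lay between the 63.6th and the 99.6th percentile of TUs with a symbol. After 6 h, 5 of these markers were called lower, where 9.2% of all tested TUs were lower. The Sox2 TU itself, whose RNA the degron does not target, held 243 and 283 CPM (fragments relative to library totals that were scaled by TMM factors) in NT and 271 and 278 CPM after 6 h, with a log2 fold change of 0.06 ± 0.11 (SE, n = 2 in each group, adjusted p = 0.736, edgeR).

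The starts of the affected genes are shown so that members that moved together can be compared in sequence. RefSeq promoter windows on GRCm38.p6, from 250 bases before to 50 bases after an annotated start, were matched for 3 of the 5 members, Otx2, Fgf5 and Foxd3, and Zic5, the gene beside Zic2, was added. Pou3f1 and Zic2 were not matched. Each window was searched on both strands for the SOX core motifs ACAAAG and ACAAT and for the octamer ATGCAAAT, and no match overlapped another in the windows shown. Capitals mark a match, and ATTGT is ACAAT read on the opposite strand. Otx2 had 4 windows, of which the 2 that lie inside its TU are printed.
Otx2 (chr14:48665060-48665359, minus strand): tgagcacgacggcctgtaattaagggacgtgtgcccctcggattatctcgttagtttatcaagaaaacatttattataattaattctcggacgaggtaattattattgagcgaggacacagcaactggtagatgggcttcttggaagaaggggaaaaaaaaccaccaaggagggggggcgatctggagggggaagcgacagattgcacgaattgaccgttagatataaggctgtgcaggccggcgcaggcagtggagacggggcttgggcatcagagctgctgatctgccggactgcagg
Otx2 (chr14:48662685-48662984, minus strand): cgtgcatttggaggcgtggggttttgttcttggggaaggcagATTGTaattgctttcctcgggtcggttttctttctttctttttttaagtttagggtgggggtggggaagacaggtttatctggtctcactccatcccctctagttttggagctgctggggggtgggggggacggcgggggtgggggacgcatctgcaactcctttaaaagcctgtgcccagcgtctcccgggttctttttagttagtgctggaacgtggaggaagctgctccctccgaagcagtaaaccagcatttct
Foxd3 (chr4:99656049-99656348, plus strand): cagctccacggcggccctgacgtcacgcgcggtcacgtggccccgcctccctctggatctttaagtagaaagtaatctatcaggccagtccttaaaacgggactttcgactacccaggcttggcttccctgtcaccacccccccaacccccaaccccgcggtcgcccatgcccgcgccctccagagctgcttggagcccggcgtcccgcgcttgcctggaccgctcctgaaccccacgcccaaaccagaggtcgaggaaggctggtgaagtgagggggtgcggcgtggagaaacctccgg
Zic5 (chr14:122465609-122465908, minus strand): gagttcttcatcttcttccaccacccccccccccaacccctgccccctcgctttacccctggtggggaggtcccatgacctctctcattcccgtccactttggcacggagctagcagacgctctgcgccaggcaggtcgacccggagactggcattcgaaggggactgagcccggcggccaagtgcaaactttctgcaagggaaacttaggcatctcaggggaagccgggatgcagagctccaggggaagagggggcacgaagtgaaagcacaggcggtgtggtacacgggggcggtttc
The Fgf5 window held 1 match to ACAAAG. Of the 4 Otx2 windows, 2 held 1 match to ACAAT each, the printed one that begins further into the gene and 1 that lies before the TU and is not printed, and the windows of Foxd3, Zic5 and the other printed start of Otx2 held none of the 3 motifs. Among all 32851 windows of the table, 31% held ACAAT, 18.7% ACAAAG and 1.74% ATGCAAAT, so a match to ACAAT is common. A match is a description of the letters, and a window without one says only that these letters are not in it.

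The TUs over the members ran well beyond the annotated genes. The Otx2 TU (chr14:48649948-48665658, minus strand, mm10) spanned 15711 bp, of which 56.5% lay in the gene, and it ran 6833 bp past the gene's end. The Zic2 TU (chr14:122475383-122487748, plus strand) spanned 12366 bp with 39.99% in the gene. The Pou3f1 TU (chr4:124658324-124663952, plus strand) was the shortest at 5629 bp, with 41.4% in the gene. The Foxd3 TU (chr4:99649195-99682536, plus strand) spanned 33342 bp, yet the gene took only 7.12% of it, since the unit began 7104 bp before the gene and continued 23865 bp past it. A value given for Foxd3 is therefore a value of this long unit, most of which is transcription outside the gene.

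In NT the 4 members differed in level. On the scale of CPM per kb of TU, Zic2 stood at 2.122 ± 0.093 (SD, n = 2), Foxd3 at 0.661 ± 0.166, Otx2 at 0.564 ± 0.034 and Pou3f1 at 0.0502 ± 0.0203. Zic2 lay at the 79.8th percentile of TUs with a symbol and Pou3f1 at the 3.73rd. Foxd3 and Otx2, neighbours in this order, differed by less than the SD of Foxd3. At 6 hpd the order of these levels was Zic2 at 0.650, Pou3f1 at 0.471, Foxd3 at 0.318 and Otx2 at 0.278 CPM per kb, so that Pou3f1 stood above Otx2 and Foxd3. In bulk libraries, fewer cells of a type and less RNA per cell cannot be told apart.

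After SOX2 depletion the nascent transcription of Zic2, Otx2 and Foxd3 was lower and that of Pou3f1 was higher. Counted over the 4 members with a TU, 2 were called lower after 0.5 h (Zic2 and Otx2) and 0 higher, where 0.787% of all 28459 tested TUs were lower and 0.527% higher. The same genes were the 2 called lower after 1 h, where 3.61% of all TUs were lower and 2.15% higher. At 2 hpd Zic2 and Otx2 were lower and Pou3f1 was higher, against 5.57% of all TUs lower and 4.26% higher. At 6 hpd all of the 3 factors Zic2, Otx2 and Foxd3 were lower and Pou3f1 was higher, against 9.2% of all TUs lower and 6.61% higher. Pou3f1 passed the count filter only through its libraries at 2 and 6 hpd, so its place among the tested members rests on the samples in which it was high. In the joint test over the 4 time points, in which 12.3% of all TUs were called, Zic2, Otx2 and Pou3f1 passed (adjusted p = 1.1e-06, 0.00225 and 8.76e-05, edgeR). Of these markers of exit from the naive state, Pou3f1 alone was higher after depletion, and Zic2, Otx2 and Foxd3 went against that name.

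**Figure D1:**
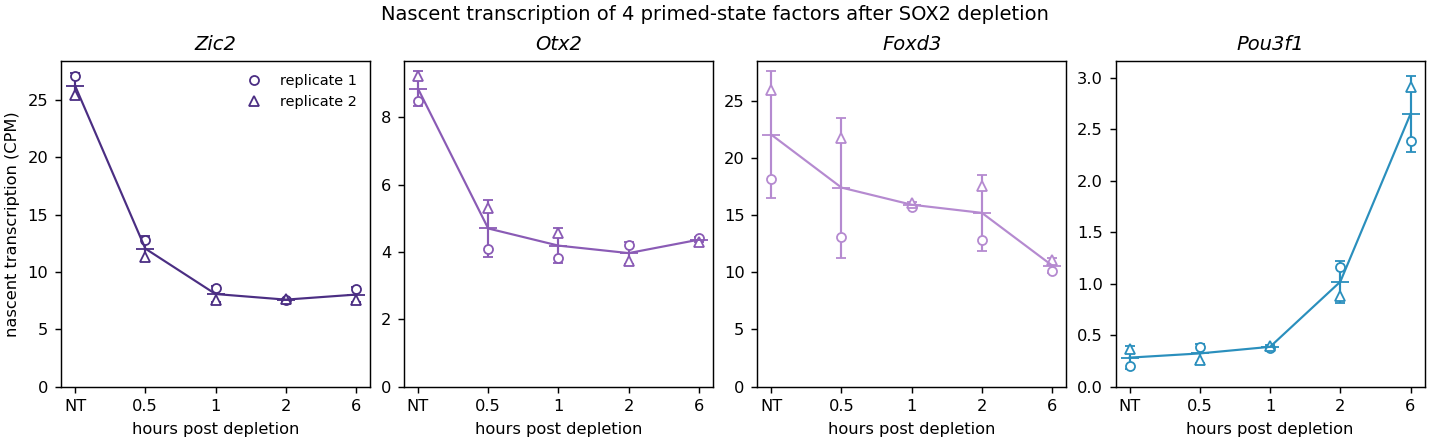
Nascent transcription of Zic2, Otx2, Foxd3 and Pou3f1 in CPM (y axes, from 0, 1 scale per gene) in NT and at 0.5, 1, 2 and 6 hpd (x axes, evenly spaced), with symbols for the 2 replicates, lines through group means and bars of 1 SD. Zic2 and Otx2 drop by 0.5 hpd and stay low, Foxd3 is lowest after 6 h at 10.1 and 11.1 CPM, and Pou3f1 reaches 2.39 and 2.91 CPM after 6 h.

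Of the 3 lowered members, Zic2 had the largest fold change at each time. It held 27.1 and 25.4 CPM in NT (402 and 350 fragments), 12.8 and 11.3 CPM after 0.5 h, 8.59 and 7.57 after 1 h, 7.53 and 7.66 after 2 h and 8.50 and 7.57 after 6 h. The 2 NT libraries lay above every depleted library, and all 6 libraries from 1 hpd on lay between 7.53 and 8.59 CPM. The log2 fold change from NT was -1.11 ± 0.14 (SE, n = 2 in each group, adjusted p = 0.000658, edgeR) after 0.5 h and -1.70 ± 0.14 (adjusted p = 5.55e-06, edgeR) after 1 h. It was -1.79 ± 0.14 after 2 h and -1.71 ± 0.14 after 6 h (adjusted p = 1.9e-06 and 1.55e-06, edgeR), when 30.6% of the NT level was left. The step from 0.5 to 1 hpd was -0.59 ± 0.15 on the log2 scale and did not pass the test (adjusted p = 0.228, edgeR), and neither did the later steps.

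Otx2 settled at about the same share of its NT level from the first time point on. It held 8.48 and 9.23 CPM in NT (126 and 127 fragments), 4.10 and 5.30 CPM after 0.5 h, 3.83 and 4.56 after 1 h, 4.196 and 3.74 after 2 h and 4.43 and 4.31 after 6 h. No depleted library reached the NT range, and the libraries at 2 hpd lay just below those at 6 hpd. The level was 53.1% of NT after 0.5 h, 47.3% after 1 h, 44.8% after 2 h and 49.3% after 6 h. Log2 fold changes were -0.94 ± 0.19 (adjusted p = 0.0236, edgeR), -1.07 ± 0.20 (adjusted p = 0.00342), -1.15 ± 0.19 (adjusted p = 0.00126) and -1.02 ± 0.20 (adjusted p = 0.00241), in that order of time. From 1 to 6 hpd the level differed by 0.06 ± 0.21 (adjusted p = 0.922, edgeR), with a 95% interval from -0.39 to 0.50. The call after 0.5 h was lost when any of the 4 libraries compared was left out, with log2 fold changes from -1.10 to -0.74, and the call after 1 h was lost without the first replicate at 1 hpd (-0.96, adjusted p = 0.0681, edgeR).

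Foxd3 was called lower after 6 h. Its TU held 18.1 and 25.9 CPM in NT (269 and 357 fragments), 13.1 and 21.7 CPM after 0.5 h, 15.7 and 16.1 after 1 h, 12.8 and 17.5 after 2 h and 10.1 and 11.1 after 6 h. The replicates stood far apart in NT and after 0.5 h, where the groups overlapped, and after 6 h the 2 libraries lay below all others. The log2 fold change after 6 h was -1.05 ± 0.23 (adjusted p = 0.00553, edgeR), which left 48.1% of the NT level. The earlier values were -0.37 ± 0.22, -0.47 ± 0.22 and -0.54 ± 0.22 (adjusted p = 0.68, 0.278 and 0.141, edgeR), and the change from 1 to 6 hpd was -0.58 ± 0.23 (adjusted p = 0.176, edgeR). The second replicate lay above the first in all 5 groups. With the replicate number as a block the values at 1 and 2 hpd and from 1 to 6 hpd were called as well. In that fit 6.14% and 9.6% of all TUs were lower at 1 and 2 hpd, against 3.61% and 5.57% without the block. The call after 6 h was lost without NT replicate 2 (-0.75, adjusted p = 0.118, edgeR) and without the first replicate at 6 hpd (-0.98, adjusted p = 0.0578), and the joint test over the 4 time points gave an adjusted p of 0.0523.

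Pou3f1 went from few fragments to a clearly measured level. It held 3 and 5 fragments in NT, 10 and 3 after 0.5 h, 6 and 7 after 1 h, 23 and 15 after 2 h and 34 and 50 after 6 h. In CPM these were 0.202 and 0.363, 0.390 and 0.257, 0.376 and 0.399, 1.16 and 0.877, and 2.39 and 2.91. The libraries up to 1 hpd lay together at 0.399 CPM or less, those after 2 h lay above all of them, and those after 6 h lay higher again. The log2 fold change was 1.85 ± 0.48 (adjusted p = 0.0222, edgeR) after 2 h and 3.22 ± 0.42 (adjusted p = 9.62e-05, edgeR) after 6 h, a fold of 9.29 with a 95% interval of the log2 value from 2.32 to 4.11. Against 1 hpd the rise after 6 h was 2.75 ± 0.38 (adjusted p = 0.000536, edgeR), in a comparison in which 1.96% of all TUs were called higher and 2.92% lower. The step from 2 to 6 hpd was 1.37 ± 0.32 (adjusted p = 0.0651, edgeR) and was not called. At 0.5 and 1 hpd the values were 0.29 ± 0.58 and 0.46 ± 0.57, with 95% intervals from -0.94 to 1.52 and from -0.76 to 1.69, so a small change at these times was not detectable at this depth. The call after 2 h was lost without NT replicate 1 (1.48), NT replicate 2 (2.31) or the first replicate at 2 hpd (1.62), and with DESeq2 (1.90, adjusted p = 0.0833), while the call after 6 h held in each of these.

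**Figure D2:**
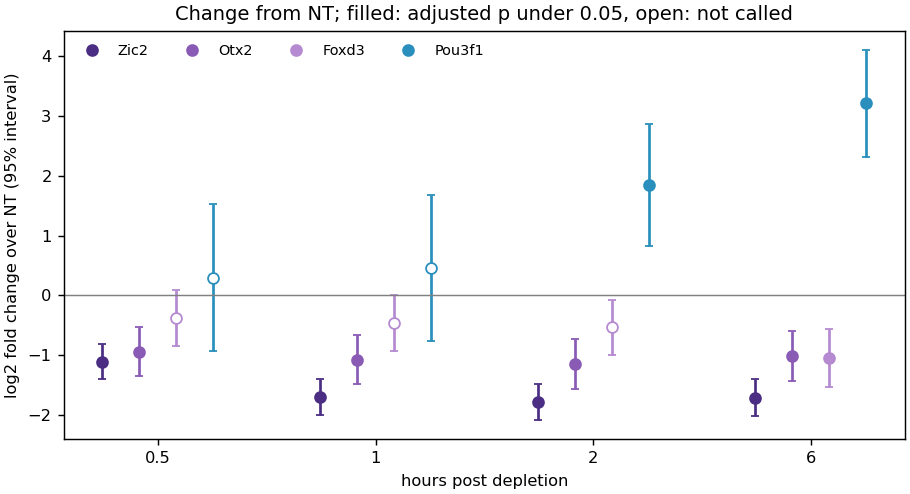
Log2 fold change from NT (y axis) of the 4 members at 0.5, 1, 2 and 6 hpd (x axis), with 95% intervals from the edgeR fit, filled where the adjusted p was under 0.05 and open where it was not. Zic2 and Otx2 are filled below 0 at all 4 times, Foxd3 only after 6 h at -1.05, and Pou3f1 is filled above 0 at 2 and 6 hpd, at 1.85 and 3.22.

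Transcription around the members was read from all TUs that overlapped a member's TU or ended within 50 kb of it, 28 in all, of which 19 were tested. Of these 19, 1 was higher and 1 lower after 0.5 h, 1 and 5 after 1 h, 1 and 5 after 2 h, and 0 and 8 after 6 h. Over all tested TUs the shares called lower at these times were 0.787%, 3.61%, 5.57% and 9.2%, and those called higher 0.527%, 2.15%, 4.26% and 6.61%. The lower TUs after 6 h lay at Zic2 and Foxd3, with 1 at Pou3f1 and none at Otx2.

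At Zic2, 4 of the 5 tested units beside it fell as well. Zic5, which encodes a related zinc finger factor and is read from the opposite strand 9.26 kb away, held 28.2 and 31.0 CPM in NT, 14.1 and 13.0 after 0.5 h, 7.78 and 8.997 after 1 h, 6.72 and 6.66 after 2 h and 7.73 and 8.74 after 6 h. Its log2 fold change was -1.12 ± 0.13 (adjusted p = 0.000565, edgeR) after 0.5 h and -1.84 ± 0.14 (adjusted p = 6.53e-07) after 6 h, close to the values of Zic2 at the same times. The TU of Gm33719 ended 11 bp before that of Zic2 on the same strand, and it was lower at 1, 2 and 6 hpd, with log2 fold changes of -1.59, -1.43 and -1.17 (adjusted p = 0.00147, 0.00167 and 0.00514, edgeR). 2610035F20Rik, which starts 202 bp from Zic2 on the opposite strand, was lower at the same 3 times, with log2 fold changes of -1.57, -2.03 and -1.71 (adjusted p = 0.0205, 0.00338 and 0.00725, edgeR). Gm5089, with 26 and 19 fragments in NT and 2 to 7 in each library from 1 hpd on, had log2 fold changes of -3.33, -2.65 and -1.90 (adjusted p = 0.000842, 0.00134 and 0.00643, edgeR). The call of 2610035F20Rik after 1 h was lost without NT replicate 2 or either replicate at 1 hpd, and after 6 h without NT replicate 2 or the first replicate at 6 hpd. The call of Gm33719 after 6 h was lost without NT replicate 1, and that of Gm5089 without the second replicate at 6 hpd. With DESeq2 the calls of 2610035F20Rik and Gm5089 after 6 h were lost (adjusted p = 0.0584 and 0.0694). At 0.5 hpd these 3 TUs did not pass the test, with values of -0.91, -0.78 and -0.65. Pcca, an enzyme gene 46.6 kb downstream of Zic2, was not called at any time, with 0.27 ± 0.14 (adjusted p = 0.218, edgeR) after 6 h.

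**Figure D3:**
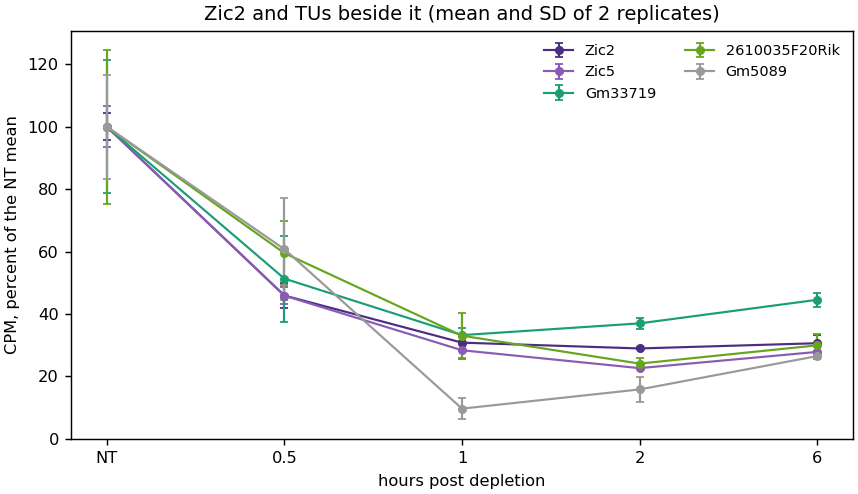
Nascent transcription as a percentage of the NT mean (y axis) of Zic2, Zic5 and the 3 neighbours Gm33719, 2610035F20Rik and Gm5089, over NT and 0.5, 1, 2 and 6 hpd (x axis, evenly spaced), with means and SDs of 2 replicates. All 5 TUs lie below 50% of NT from 1 hpd on, with Zic2 at 30.6% and Zic5 at 27.8% after 6 h.

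At Foxd3, a TU on the opposite strand overlapped the Foxd3 TU for most of its 26240 bp. It held 6.73 and 10.2 CPM in NT, 4.995 and 5.05 after 0.5 h, 4.52 and 4.33 after 1 h, 3.08 and 5.26 after 2 h and 3.72 and 3.32 after 6 h, so that the NT libraries lay above all others. This antisense unit was called lower at 1 hpd (-0.94 ± 0.25, adjusted p = 0.0391, edgeR), 2 hpd (-1.03 ± 0.25, adjusted p = 0.0161) and 6 hpd (-1.27 ± 0.26, adjusted p = 0.00377). Leaving out NT replicate 2 ended all 3 calls (-0.59, -0.70 and -0.92). The first of them also ended without either replicate at 1 or 6 hpd and when TUs averaging under 50 counts were dropped, and the call at 2 hpd ended without that group's first replicate (-0.69). The authors split the alignments by strand, and the 2 units were counted apart. Upstream of Foxd3, 2 extragenic TUs on the opposite strand were lower after 6 h, 1 at 5.77 kb (-2.24 ± 0.55, adjusted p = 0.012, edgeR) and 1 at 17.03 kb (-1.44 ± 0.42, adjusted p = 0.0301), on 9 and 12 fragments summed over the 2 libraries at that time. The call of the nearer was lost without NT replicate 2 (-1.46) or the first replicate at 6 hpd (-1.72), and that of the farther without any 1 of the 4 libraries compared (-1.56 to -1.27), with DESeq2 and with only the libraries compared.

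No TU beside Pou3f1 was called higher after 6 h. Fhl3, a LIM domain gene 32.0 kb downstream, was higher at 0.5, 1 and 2 hpd by 0.81, 0.91 and 0.58 on the log2 scale (adjusted p = 0.0131, 0.00156 and 0.0231, edgeR) and stood at 0.21 ± 0.15 (adjusted p = 0.395) after 6 h, when Pou3f1 was highest. Its call at 0.5 hpd was lost when any of the 4 libraries compared was left out, and its call at 2 hpd without NT replicate 1, NT replicate 2 or the second replicate at 2 hpd (0.65, 0.51 and 0.38) or with scaling by total counts only (0.47). A short extragenic TU 5.78 kb downstream was lower after 6 h (-1.34 ± 0.41, adjusted p = 0.0368, edgeR), on 9 and 10 fragments, and its call was lost without NT replicate 2 (-0.97), without either replicate at 6 hpd and with DESeq2. Utp11l, on the opposite strand, was not called at any time, with 0.27 ± 0.13 (adjusted p = 0.16, edgeR) after 6 h. At Otx2, neither the unit antisense to its end nor the noncoding Otx2os1 was called, and Otx2os1 had -1.03 ± 0.36 (adjusted p = 0.063, edgeR) after 6 h, near the value of Otx2 itself.

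Across the 10 libraries, log2 CPM of Otx2 and Zic2 moved together (Pearson's r = 0.92, n = 10) and those of Zic2 and Foxd3 less closely (r = 0.61). Pou3f1 ran against all of the other 3, with r from -0.76 (Foxd3) to -0.47 (Otx2). Libraries of a group share their treatment, so these values carry no test, and they follow both the time course and differences between replicates. By the same measure the TUs most like Zic2 were 2500002B13Rik (r = 0.993), Ubqln4 and Klf2 (r = 0.990 for both), the last a core naive factor. The most like Pou3f1 were Cachd1 (0.988), Zfp385b (0.984) and Efnb2 (0.982), an ephrin ligand. Their log2 fold changes after 6 h were 1.098, 1.34 and 1.39, smaller than that of Pou3f1, and a rise at the late times follows from how they were picked. The most like Otx2 were Trim13 (0.974), Eif4e2 (0.963) and 5730405O15Rik (0.951), and the most like Foxd3 were Fance (0.976), Gm35260 (0.973) and Nupr1l (0.967). Fance and Nupr1l were not called at any time (adjusted p of the joint test 0.317 and 0.443, edgeR). Gm35260 was called lower after 6 h (-0.79, adjusted p = 0.00643, edgeR).

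The members were set beside other genes of the same states and families. In a list of 24 further formative and primed genes, 16 were tested, of which 0, 0, 1 and 3 were higher and 1, 3, 3 and 3 were lower at 0.5, 1, 2 and 6 hpd. Over all tested TUs, 0.527%, 2.15%, 4.26% and 6.61% were higher and 0.787%, 3.61%, 5.57% and 9.2% lower at these times. The list's median log2 fold change was -0.06 after 6 h, that of all tested TUs was -0.04 and that of tested TUs with a symbol was 0.07. The genes that fell after 6 h were Zic5, Utf1 (-1.78 ± 0.22, adjusted p = 6.95e-05, edgeR), a chromatin factor of pluripotent cells, and Tcf7l1 (-0.58 ± 0.12, adjusted p = 0.00543), a repressor at the end of the Wnt pathway. The genes that rose were the de novo DNA methyltransferase Dnmt3a (0.60 ± 0.13, adjusted p = 0.00445), Sox4 (0.88 ± 0.28, adjusted p = 0.045) and Etv4 (0.36 ± 0.12, adjusted p = 0.04999), an ETS factor downstream of FGF signalling. The count of 3 became 1 with DESeq2 and 0 without NT replicate 2, since the calls of Sox4 and Etv4 were lost with DESeq2, with total counts only, with no count filter and when NT replicate 2, the first replicate at 0.5 hpd or any library at 1 or 6 hpd was left out. The call of Dnmt3a was lost without NT replicate 2 (0.55, adjusted p = 0.0506, edgeR), and the call of Tcf7l1 was lost without NT replicate 2 or the first replicate at 6 hpd.

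Among 17 naive genes, all of them tested, 0 were higher and 3, 7, 9 and 13 were lower at 0.5, 1, 2 and 6 hpd. Of all tested TUs, 0.527%, 2.15%, 4.26% and 6.61% were higher and 0.787%, 3.61%, 5.57% and 9.2% lower at these times. The naive list had a median log2 fold change of -0.72 after 6 h, against -0.04 over all tested TUs and 0.07 over those with a symbol. Klf2, the KLF factor that sustains the naive network, fell by 2.58 after 0.5 h (log2 scale, adjusted p = 1.31e-07, edgeR) and by 3.58 after 6 h (adjusted p = 1.27e-09). Nr0b1, a nuclear receptor, and Prdm14, a repressor that protects naive cells, were called lower from 0.5 hpd on and stood at -1.68 ± 0.18 and -1.08 ± 0.11 after 6 h. Fgf4, the FGF ligand made by naive cells, Tcl1 and Pecam1 were lower after 6 h, with log2 fold changes of -1.42, -1.51 and -1.34. Zic2, Otx2 and Foxd3 thus changed in the direction of the naive list. The list of relatives held 24 genes of the OTX, FGF, POU, ZIC and FOX families, of which 12 were tested, neither Zic1 nor Zic4 among them. After 6 h, 2 of the 12 were higher and 2 lower, where 6.61% of all tested TUs were higher and 9.2% lower. Pou2f3 (0.89 ± 0.11, adjusted p = 4.86e-05, edgeR) and Foxo1 (0.66 ± 0.13, adjusted p = 0.00382) were higher, Fgf10 (-1.47 ± 0.18, adjusted p = 4.4e-05) and Foxh1 (-1.01 ± 0.13, adjusted p = 0.000116) were lower, and Foxp1 was called lower at 1 and 2 hpd (-0.82 and -0.92) and stood at -0.42 ± 0.22 (adjusted p = 0.209) after 6 h. The call of Foxo1 was lost without NT replicate 2 (0.59, adjusted p = 0.0526, edgeR).

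**Figure D4:**
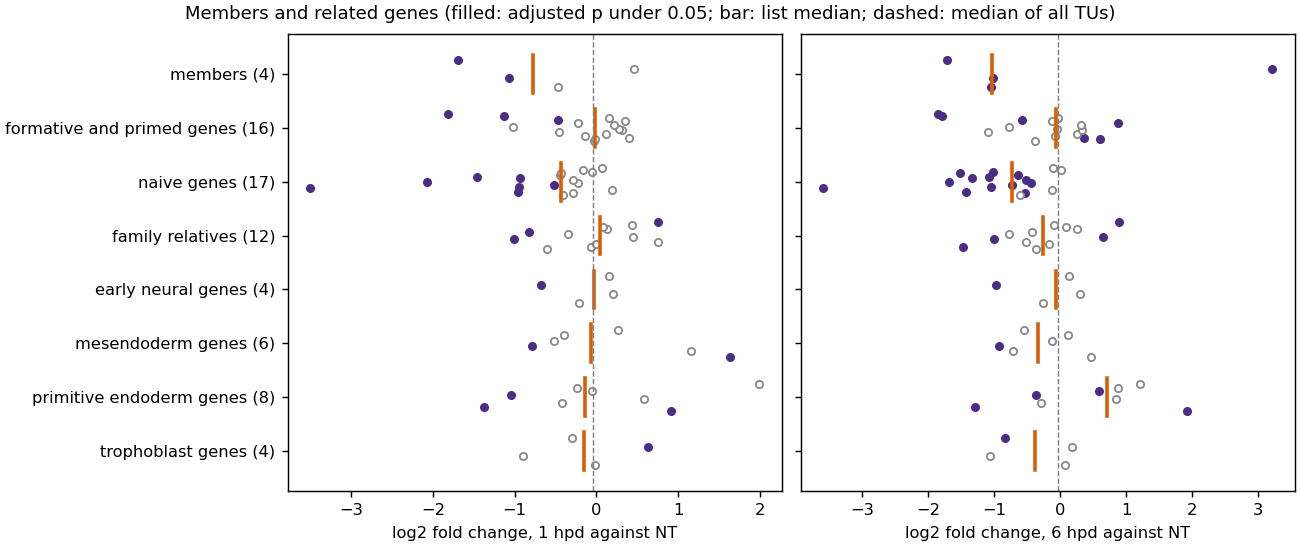
Log2 fold change from NT at 1 hpd (left) and 6 hpd (right) of the 4 members and of the tested genes in 7 lists (y axis, number of genes in brackets), with filled points for an adjusted p under 0.05, orange bars for list medians and a dashed line for the median of all TUs. Zic2, Otx2 and Foxd3 lie left of 0 with most naive genes, at a median of -0.72 for the latter after 6 h, and Pou3f1 lies at 3.22.

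Markers of other cell types were read beside the rise of Pou3f1. The summed level of 8 tested primitive endoderm genes of 11 was 98.5 and 99.1 CPM in NT, 74.3 to 81.4 CPM after 1 h and 123 and 143 CPM after 6 h, and Sox17, Cubn and Amn were not tested. Of 13 early neural genes, 4 were tested, and their sum ran from 33.6 to 41.2 CPM in NT and from 29.6 to 30.4 CPM after 6 h. Sox1, Olig2 and Six3 were among the 9 neural genes not tested. Trophoblast genes (4 of 9 tested) summed to 204 to 238 CPM in NT and 225 to 226 CPM after 6 h, and mesendoderm genes (6 of 12 tested) to 36.1 to 46.7 and 34.0 to 37.2 CPM. The part of other cell types in the rise of Pou3f1 was not tested.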

How the data were processed

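TT_chem-seq was available as raw fragment counts per TU in 10 libraries, deposited by the authors without normalization. Per the submitters' notes and the study's methods, reads were aligned to mm10 with BWA 0.7.17-r1188, filtered with SAMtools 1.10, freed of duplicates with Picard 2.12.0 and split by strand, and TUs were called on the libraries pooled and tied to RefSeq genes. Positions of TUs on mm10 were deposited too and are printed as given. The authors' steps fix the TU borders, so a value covers the whole unit and not the gene alone.

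Of 40779 TUs, the 28459 that exceeded 10 fragments in 2 or more libraries entered 1 edgeR model (version 4.0.16, R 4.3.3), scaled by TMM, with a coefficient for each group and no covariates. Quasi-likelihood F-tests compared each time point with NT, successive time points, 6 with 1 hpd, and all time points jointly. P-values were adjusted by Benjamini-Hochberg over all tested TUs, with calls under 0.05. The biological coefficient of variation was 10.05%. SEs are the fold change over the square root of F. Log2 CPM for correlations took a prior count of 2. The library totals set the precision, and replicates differed by more than counting error.

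Named were the members, Sox2, the 3 TUs most like each tested member among those with a symbol and a mean of at least 50 counts, up to 6 genes with the smallest p at 6 hpd per list among those called at any time, and all called TUs within 50 kb of a member. The uncalled neighbours and markers were named after their values were seen. The members and lists were chosen with earlier results of these data known, and 2 list genes are not reported here. The fit was tested on simulated data. Alternatives were DESeq2 1.42.0, RLE factors, total counts only, no filter, a replicate block by number, a minimum mean of 50 counts, fits of the compared libraries alone, a distance of 20 kb and leaving out each library.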

Additional observations from a re-analysis of the deposited data

Results flagged for a closer look

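Among the members and the TUs called beside them, the change from NT differed between 1 and 6 hpd in a direct test for 3. Pou3f1 was higher at 6 than at 1 hpd by 2.75 ± 0.38 on the log2 scale (adjusted p = 0.000536, edgeR). Fhl3, downstream of Pou3f1, was lower at 6 than at 1 hpd by -0.71 ± 0.15 (adjusted p = 0.0106, edgeR). The extragenic TU 17.03 kb upstream of Foxd3 on the opposite strand was lower at 6 than at 1 hpd by -1.66 ± 0.40 (adjusted p = 0.0253, edgeR). Cachd1, Zfp385b and Efnb2, which were picked for their likeness to Pou3f1 over the same libraries, were also higher at 6 than at 1 hpd, by 1.00, 1.18 and 1.27 on the log2 scale, values that the way they were picked bears on. Groups of 2 libraries were too small for a test of outlying samples.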

How the results depend on the processing

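Zic2 kept its calls at all 4 times, Otx2 at 2 and 6 hpd and Pou3f1 at 6 hpd under every alternative that could be fitted. Pou3f1 has no value with a mean of at least 50 counts, which leaves it out, and no adjusted p from DESeq2 at 6 against 1 hpd. With DESeq2 the call of Pou3f1 at 2 hpd was lost (1.90, adjusted p = 0.0833). Leaving out 1 library gave ranges of -1.10 to -0.74 for Otx2 at 0.5 hpd, -1.21 to -0.96 at 1 hpd, 1.48 to 2.31 for Pou3f1 at 2 hpd and -1.27 to -0.75 for Foxd3 at 6 hpd, and each of these calls was lost in part of the range. Steps that were not called changed sign in the same exercise. Otx2 ranged from -0.34 to 0.041 between 0.5 and 1 hpd, from -0.20 to 0.055 between 1 and 2 hpd and from -0.062 to 0.19 between 1 and 6 hpd. Pou3f1 ranged from -0.12 to 0.76 at 0.5 hpd and from -0.0024 to 0.58 between 0.5 and 1 hpd. Zic2 ranged from -0.18 to 0.0037 between 1 and 2 hpd and from -0.10 to 0.082 between 1 and 6 hpd, and Foxd3 from -0.45 to 0.29 between 0.5 and 1 hpd and from -0.34 to 0.14 between 1 and 2 hpd. The adjusted p of the joint test for Foxd3 was 0.0127 with DESeq2 and 0.0369 without a filter, and 0.00684 to 0.253 with 1 library left out. With only the libraries compared, Foxd3 at 6 against 1 hpd was called at -0.58 (adjusted p = 0.0106, edgeR). The cause was not tested.

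The labels do not say whether the replicate number pairs the libraries. Deviations of same-numbered libraries correlated at 0.054 to 0.663 over the pairs of groups, lowest for 6 hpd with 0.5 hpd (0.054) and with 2 hpd (0.064). With the replicate number as a block, Pou3f1 at 6 against 2 hpd (1.36) and Zic2 at 1 against 0.5 hpd (-0.58) were also called. Foxd3 was also called at 1 hpd (-0.45), 2 hpd (-0.53), 6 against 1 hpd (-0.59) and in the joint test (adjusted p = 0.000589, edgeR). No member lost a call. The block raised the calls over all TUs too. At 6 hpd 14.2% were lower and 11.9% higher, against 9.2% and 6.61% without the block. Of the formative and primed genes, 1 was higher at 6 hpd with DESeq2, total counts only or a mean of at least 50 counts. Of all TUs, 5.81%, 5.12% and 9.67% were higher under these settings, in that order. The count also varied when 1 library was left out. With the replicate block 5 of these genes were lower at 6 hpd, where 14.2% of all TUs were lower. Within 20 kb of the members 0 TUs were higher at 0.5, 1 and 2 hpd. Uncalled values of the short TU beside Pou3f1 and the TU 5.77 kb from Foxd3 ranged with 1 library left out from -0.38 to 0.26 and from -0.88 to 0.40 at 0.5 hpd, and from -0.51 to 0.13 and from -0.77 to 0.51 at 1 hpd. Total counts only moved the median of all TUs to -0.16 at 2 hpd, with 7.26% of TUs lower and 2.93% higher, and the calls of the members at 6 hpd stayed. Pou3f1, at 3 to 10 fragments up to 1 hpd, is the member that depth limits most.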

Other observations

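Eomes, a T-box factor of mesendoderm and trophoblast, was higher at 0.5, 1 and 2 hpd, before Pou3f1 had reached its highest level, with log2 fold changes of 1.52, 1.64 and 1.79 (adjusted p = 0.00145, 0.000182 and 3.98e-05, edgeR), and stood at 0.47 ± 0.22 (adjusted p = 0.177) at 6 hpd. Gsc, a homeobox gene of the organizer, was lower at 6 hpd (-0.92 ± 0.19, adjusted p = 0.00424, edgeR). Among 8 tested primitive endoderm genes 2 were higher and 2 lower at 6 hpd, when 6.61% of all tested TUs were higher and 9.2% lower, and the list's median log2 fold change was 0.72, with 5 genes above 0, where the median was -0.04 over all tested TUs and 0.07 over those with a symbol. Dab2, an endocytic adaptor, rose by 1.92 ± 0.15 (adjusted p = 5.78e-07, edgeR) and the laminin gene Lamb1 by 0.59 ± 0.14 (adjusted p = 0.00924), while the laminin gene Lama1 (-0.36 ± 0.11, adjusted p = 0.033) and Fst (-1.29 ± 0.33, adjusted p = 0.0151), which encodes follistatin, were lower. Gata6 was called higher only at 2 hpd (1.14, adjusted p = 0.0295, edgeR). Nes, the neural progenitor filament gene, was the only early neural gene of 4 tested that was called, at -0.97 ± 0.16 (adjusted p = 0.00075, edgeR) at 6 hpd. Of 4 tested trophoblast genes, Tfap2c was lower at 6 hpd (-0.83 ± 0.13, adjusted p = 0.000449, edgeR) and Tead4 was higher at 1 hpd (0.64, adjusted p = 0.00173). The calls of Gsc, Lamb1, Lama1 and Fst at 6 hpd were each lost when 1 of several libraries was left out, those of Lama1 and Fst also with DESeq2 (adjusted p = 0.117 and 0.0932) and that of Lama1 also with RLE factors and with no count filter.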
